A study of Mus musculus with 60 samples.

Results

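The proteins of the cytoplasmic ribosome were followed through the mRNAs that encode them in the mouse kidney. Genes were taken by symbol, as Rpl or Rps with a number, Rplp0, Rplp1, Rplp2 and Rpsa, with pseudogenes (-ps) and the kinases of the Rps6k family left out, and with at least 1 CPM (counts scaled to a common library size) in at least 1 of the 60 samples. Of 93 genes with such a symbol, 84 met the minimum, among 15546 genes tested. They were 31 of 31 proteins of the small (40S) subunit, 45 of 46 proteins of the large (60S) subunit, 7 of 12 paralogs and Rps19bp1, which encodes a protein that binds RPS19 and is no subunit. The 9 genes below the minimum were Rpl24, the listed paralogs Rpl10l, Rpl36al, Rpl39l, Rps3a2 and Rps3a3, and the pseudogenes Rpl32l, Rpl6l and Rps12l1. Rps3a2 and Rps3a3 are annotated as processed pseudogenes too, and the members Rps4l and Rpl37rt as transcribed processed pseudogenes. The rule left out only pseudogenes named with -ps.

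Kidneys came from male mice on a C57BL/6J background that were killed at 6 zeitgeber times (ZT, hours after lights on in a cycle of 12 h light and 12 h dark), with 5 mice of each genotype at each time. The cKOt mice were Bmal1lox/lox/Pax8-rtTA/LC1, in which doxycycline (DOX) switches on Cre through the Pax8 promoter in cells along the whole tubule and removes Bmal1 (Arntl), the clock transcription factor. Control mice were Bmal1lox/lox littermates. Mice of both genotypes drank DOX (2 mg/ml, with 20 mg/ml sucrose) for 2 weeks from the age of 8 weeks. By the methods of the study, kidneys were taken several weeks after DOX had ended. Cells without Pax8 keep Bmal1, and control mice lack the Cre transgenes, so that the effects of Cre with DOX and of the deletion cannot be told apart. The labels name the renal tubule, whereas the methods describe pieces of whole kidney, and in whole tissue fewer cells of a type cannot be told apart from less RNA per cell. The authors chose 5 mice per group from a larger number, and a cKOt sample at ZT16 that their sample table marks for removal was deposited and kept here.

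Each sample held 17791420 to 20906706 counts on genes. Over time, the level of Arntl ranged from 1.93 to 57.1 CPM among control mice, against 14.6 to 26.8 CPM among cKOt mice, and the fitted amplitude of its rhythm (peak to trough) was 4.80 against 0.50 on the log2 scale. These counts cover the whole gene and not the deleted exon alone. Proximal tubule markers (7 of 7 above the minimum) summed to 9881 to 13998 CPM among control mice and to 9095 to 14741 CPM among cKOt mice. Markers of podocytes, endothelium and fibroblasts were measured too, so the samples held more than tubule. Erythroid markers were near 0, at a sum of at most 3.27 CPM in any sample.

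A ribosome translates mRNA into protein. Its small subunit reads the message, its large subunit joins the amino acids, and their proteins are assembled on ribosomal RNA in the nucleolus. Cells need the subunit proteins in like amounts. In mammals their mRNAs typically begin with a 5′ terminal oligopyrimidine (TOP) tract, a C followed by a run of pyrimidines at the cap, through which the kinase mTOR and the RNA-binding protein LARP1 set their translation and stability. In the kidney, tubule cells keep up large sets of transport proteins, which they make on these ribosomes.

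The TOP tract lies at the start of the transcript, so sequence around the start is shown for 6 of the 8 members with the largest called changes between genotypes and for 2 paralogs, Rpl7l1 and Rps27l, for which no change was called. Sequences are those of RefSeq on GRCm38.p6, in the direction of the transcript, from 50 bases before to 20 bases after the annotated start, with the longest run of pyrimidines (the first, where runs were equally long) in capitals. Their positions were chr7:109519145-109519214 (plus), chr3:28805458-28805527 (plus), chr13:90923072-90923141 (plus), chr5:107900478-107900547 (plus), chr1:39367801-39367870 (plus), chr14:18270967-18271036 (minus), chr17:46782637-46782706 (minus) and chr9:66946036-66946105 (plus), with the strand in brackets. Rps27l has 2 annotated starts, and that with the longer run is given.
Rpl27a: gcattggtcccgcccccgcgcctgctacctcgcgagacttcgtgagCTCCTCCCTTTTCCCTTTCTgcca
Rpl22l1: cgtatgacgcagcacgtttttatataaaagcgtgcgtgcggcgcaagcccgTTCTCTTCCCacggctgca
Rps23: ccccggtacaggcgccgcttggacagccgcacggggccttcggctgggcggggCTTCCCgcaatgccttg
Rpl5: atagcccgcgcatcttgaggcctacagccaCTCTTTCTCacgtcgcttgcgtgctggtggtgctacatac
Rpl31: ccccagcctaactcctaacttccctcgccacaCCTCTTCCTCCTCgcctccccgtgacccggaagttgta
Rpl15: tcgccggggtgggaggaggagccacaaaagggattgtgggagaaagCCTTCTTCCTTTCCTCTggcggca
Rpl7l1: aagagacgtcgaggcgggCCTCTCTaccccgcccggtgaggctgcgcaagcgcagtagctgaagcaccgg
Rps27l: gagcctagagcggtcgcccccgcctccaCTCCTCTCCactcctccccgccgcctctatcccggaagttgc

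In Rpl27a and Rpl15 the capitals spanned the start itself, with runs of 20 and 17 bases. The run of Rpl22l1 held 10 bases and lay just after the start, whereas those of Rpl5 and Rpl31 lay before it. In Rps23 the longest run held 6 bases. A RefSeq start need not be the start used in the kidney, and the counts do not show where transcripts began. Of the 84 members, 63 had an entry in the promoter table. Without Rps19bp1, a run of at least 8 pyrimidines (C or T in any order, on the transcript strand) lay in this window in 37 of 62 members (59.7%) and in 30.9% of the 11416 tested genes in the table (31.1% of all 27025). A C followed by 4 pyrimidines exactly at the start was found in 14 members (22.6%), against 3.04% of tested genes (3.01% of all). The E-box CACGTG, the sequence bound by BMAL1 with CLOCK (the same on both strands), occurred between 250 bases before and 50 bases after the start in 6 members (9.68%) and in 11.4% of tested genes (8.09% of all). Such matches are descriptions of the letters and not binding sites.

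Summed over the 84 genes, the share of counts on genes was 0.633% ± 0.0429 (SD, n = 30) for control mice, against 0.722% ± 0.0704 (SD, n = 30) for cKOt mice. The lowest, median and highest shares were 0.520%, 0.632% and 0.707% for control mice, against 0.575%, 0.729% and 0.908% for cKOt mice. The genotypes overlapped, although 27 of 30 cKOt mice lay above the control median and 19 above the highest control mouse. The mean was higher in cKOt mice at 6 of 6 time points and in 6 of 6 library batches, closest in batch 2 (0.633% for control and 0.672% for cKOt mice) and farthest apart in batch 4 (0.607% and 0.738%), with 3 to 6 mice of a genotype per batch. This share is of total counts, and the difference was smaller on library sizes scaled by TMM (trimmed mean of M values). The summed level was then 6529.8 ± 443 CPM for control and 7004 ± 604 CPM for cKOt mice (SD, n = 30 each), a ratio of 1.07 against 1.14 for the share. On this scale 25 of 30 cKOt mice lay above the control median and 3 above the highest control mouse, and the cKOt mean was higher at 6 of 6 time points and in 6 of 6 batches.

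The widest gap was at ZT16. The 5 cKOt mice there had shares of 0.849, 0.693, 0.908, 0.754 and 0.747%, and the 5 control mice 0.692, 0.608, 0.597, 0.658 and 0.643%. All 5 cKOt shares were above the highest control share, the lowest of them by a narrow margin, but with TMM scaling 3 of 5 summed levels were. At ZT12 the shares were 0.616, 0.687, 0.770, 0.686 and 0.589% in cKOt mice and 0.677, 0.599, 0.635, 0.520 and 0.611% in control mice, and the groups overlapped.

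**Figure D1:**
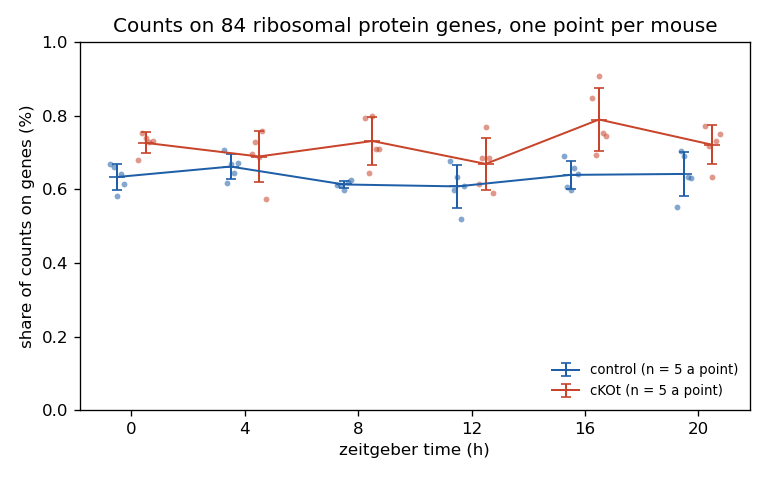
Share of the counts on genes that fell on the 84 ribosomal protein genes (percent, vertical axis) against zeitgeber time (hours), with a point for each mouse and lines through group means with SD (n = 5) for control (blue) and cKOt (red) mice. The cKOt mean lay above the control mean at all 6 time points, with the highest mouse at 0.908%.

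Ribosomal protein genes have many processed pseudogenes, and reads that aligned to more than 1 place were not counted. Such alignments made up 26.9% ± 0.835 (SD, n = 30) of the alignment entries for control mice and 25.4% ± 0.679 (SD, n = 30) for cKOt mice, so they moved with genotype, and their part in the results was not tested. The program counts alignments here and not reads. Of the 84 members, 82 had protein-coding transcripts, and 0% to 89.5% of the 100-base windows of these transcripts (median 25.4%) also occurred, letter for letter, in a transcript of another gene. None of the windows of Rpl22, Rps3, Rps21, Rps27l, Rpl3l or Rps19bp1 did, against 83.6% for Rpl36a and 83.6% for Rps6. The windows are shorter than the sequenced reads and were matched exactly, so these percentages are not the share of reads left out. The count of a gene with many copies can therefore understate its mRNA, and a count can also include reads of a near-identical copy. Exons of another gene on the same strand covered over 5% of the exon bases of 14 members. Ribosomal pseudogenes named with -ps took 0.00676% ± 6.42e-04 and 0.00783% ± 8.10e-04 of the counts (SD, n = 30 mice each), in the order control, cKOt.

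Mean levels in control mice ranged from 0.525 CPM (Rps29) to 396 CPM (Rpl4), with a median of 59.7 CPM. Per kilobase of exon, the highest level was that of Rps15, a protein of the 40S head, at 206 CPM per kb for control and 223 for cKOt mice. The lowest was that of Rps10, at 0.667 and 0.778 CPM per kb. Across the 82 members with coding transcripts, Spearman's rho between the copied share and the level per kb was -0.28, and between the copied share and the log2 fold change 0.11. These genes share their libraries, and the values are descriptions.

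**Figure D2:**
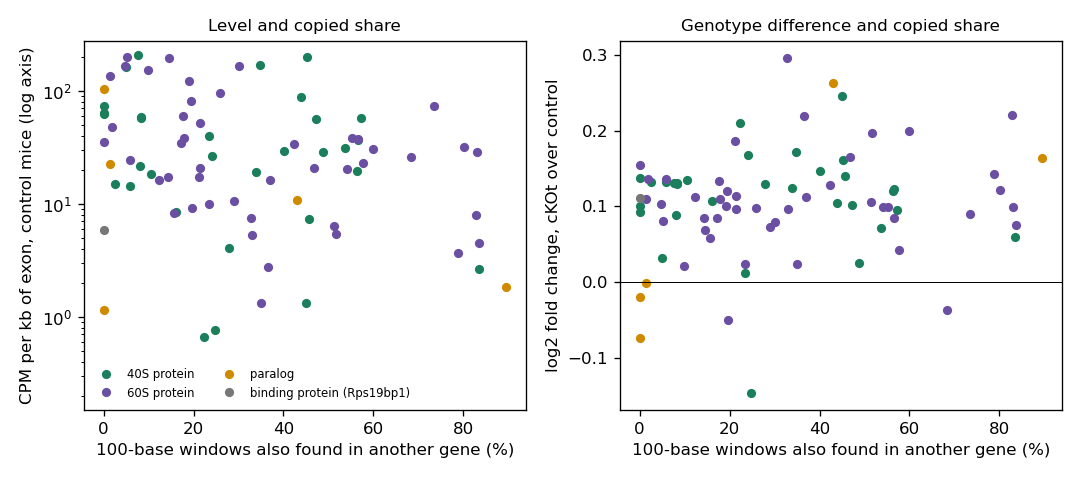
Left, level in control mice (CPM per kb of exon, log axis), and right, log2 fold change of cKOt over control mice, each against the percent of 100-base coding windows that another gene also holds, with a point for each of 82 members coloured by class. Members with few and with many copied windows both lay mostly above 0 on the right, with rho at 0.11.

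Over the 6 time points together, the ribosomal protein mRNAs were higher in cKOt mice as a broad and small shift. Of the 84 members, 53 were higher and 0 lower (adjusted p below 0.05 by the quasi-likelihood test of edgeR, adjusted by Benjamini-Hochberg, over all genes tested), where 26.8% of all genes were higher and 23.2% lower. The p-values measure the spread between these mice that was left after RUVs factors were fitted. These factors estimate unwanted variation from replicates among the same mice. At an unadjusted p under 0.05, 1 member was lower, and limma and DESeq2 called 0 and 1 lower, the latter Rps27l. The median log2 fold change of the members was 0.11, against 0.01 over all genes. The changes of called members ranged from 0.08 to 0.30, that is 1.06-fold to 1.23-fold. In 43 members, 41 of them called, the fitted difference was above 0 at all 6 time points, as it was in 19.3% of all genes. In none of the 84 members were the 30 mice of a genotype entirely apart from the 30 of the other. The same count over all genes is not given here, so this is no trait of the members.

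The count of called members fell with other covariates. With library batch in place of the 2 RUVs factors (estimates of unwanted variation from replicates), 33 members and 22.4% of all genes were higher. With RNA integrity in their place, 35 members and 22.1% of all genes were. With neither RUVs factors nor a covariate in their place, 36 members and 22.1% of all genes were higher. On total counts, without the TMM factors that averaged 0.971 in control and 1.03 in cKOt mice, the median of the members was 0.18 and that of all genes 0.09, with 69 members and 49.6% of all genes higher.

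**Figure D3:**
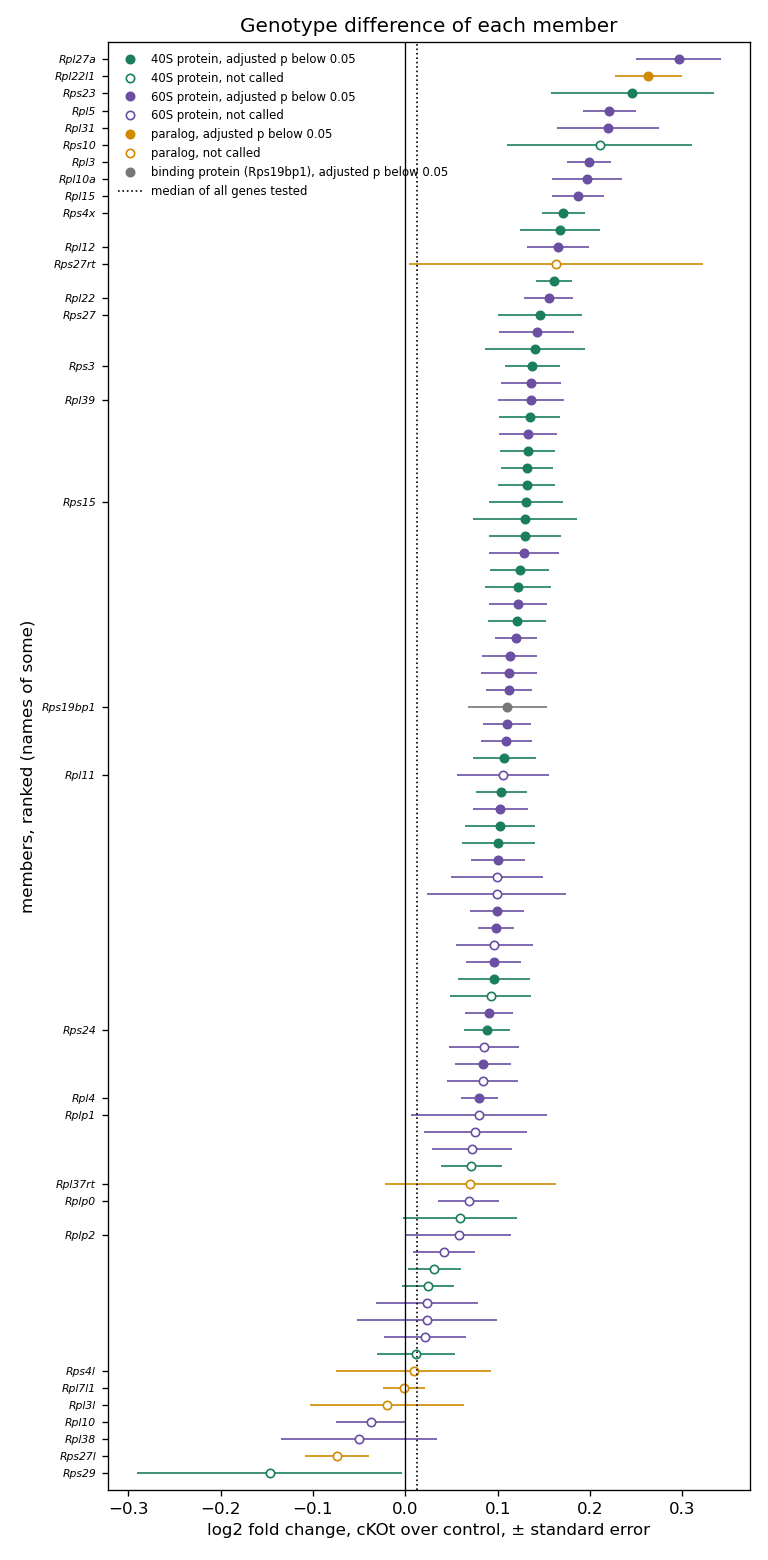
Log2 fold change of cKOt over control mice over the 6 time points (horizontal axis, points with SE) for each of the 84 members, ranked and in part named, with filled points where the adjusted p was below 0.05. Of 84 points, 53 were filled and all of these lay right of 0, between 0.08 and 0.30, and the dotted line marks the median of all genes at 0.01.

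Proteins of both subunits were among the called members. Of the 31 proteins of the 40S subunit, 23 were higher, with a median log2 fold change of 0.12, and of the 45 of the 60S subunit 28 were, with a median of 0.10. Of the 7 paralogs, 1 was higher, with a median of 0.01. Over all genes 26.8% were higher and 23.2% lower. No test of the difference between these classes was made. Members with under 10% of copied windows had 15 of 21 higher (median 0.11), those with 10% to under 50% 28 of 41 (median 0.11) and those with 50% or more 10 of 20 (median 0.10). The called shares were 71.4%, 68.3% and 50.0% in this order, and the part of copied windows in the shift was not tested. A run of at least 8 pyrimidines was sought anywhere from 50 bases before to 20 bases after the start. In Rpl5 and Rpl31 it lay wholly before the start, so this is no split by TOP tract. Of the members with such a run, 24 of 37 were higher (median 0.11), and of those without it 16 of 26 (median 0.11). With a C and 4 pyrimidines exactly at the start 6 of 14 were higher (median 0.10), and without them 34 of 49 (median 0.11). Rps19bp1 is counted here among the members without either. These differences were not tested.

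The largest called change was that of Rpl27a (chromosome 7, 109519147 to 109522367, plus strand, GRCm38 as are all gene positions here), a 60S protein whose sequence at the start is given above. Its lowest, median and highest levels were 15.6, 20.7 and 26.8 CPM for the 30 control mice, against 20.3, 24.5 and 36.7 CPM for the 30 cKOt mice. At ZT16 its levels were 26.8, 19.4, 16.2, 21.6 and 20.0 CPM in the 5 control mice and 36.7, 24.0, 35.3, 27.0 and 27.5 CPM in the 5 cKOt mice. Of 30 cKOt mice, 29 lay above the control median and 8 above the highest control mouse. The log2 fold change was 0.30 ± 0.05 (SE), with an adjusted p of 2.50e-07 by the quasi-likelihood test of edgeR, adjusted by Benjamini-Hochberg.

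Next came Rpl22l1 (chromosome 3, 28805436 to 28807424, plus strand), a paralog that can stand in for Rpl22 in the large subunit. Its lowest, median and highest levels were 13.4, 20.8 and 30.8 CPM for the 30 control mice, against 19.8, 25.2 and 34.8 CPM for the 30 cKOt mice, and 29 of 30 cKOt mice were above the control median. It rose by 0.26 ± 0.04 (SE) on the log2 scale (adjusted p = 2.01e-08 by edgeR). Rpl22 itself (chromosome 4, 152325742 to 152334071, plus strand), which has no copied window, rose too. Its mean was 103 ± 7.81 CPM for control and 116 ± 9.39 CPM for cKOt mice (SD, n = 30 each), and the log2 fold change was 0.16 ± 0.03 (SE) with an adjusted p of 1.68e-06 by edgeR.

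Rpl5 (chromosome 5, 107900502 to 107909005, plus strand) and Rpl11 carry the 5S ribosomal RNA into the large subunit, and free of the ribosome this particle binds MDM2. The levels of Rpl5 were 24.6, 30.6 and 38.3 CPM for the 30 control mice, against 28.6, 36.3 and 51.8 CPM for the 30 cKOt mice as the lowest, median and highest, and 28 of 30 cKOt mice were above the control median. Its log2 fold change was 0.22 ± 0.03 (SE) (adjusted p = 5.14e-09 by edgeR). For Rpl11 the value was 0.11 ± 0.05 (SE) with an adjusted p of 0.0709 by edgeR, and the change was not called. Both have many copies, with 82.7% and 51.3% of their coding windows found in other genes.

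Of the 9 listed proteins that line the exit tunnel of the large subunit, through which the new chain leaves, 7 were higher and 0 lower, with a median log2 fold change of 0.12. Counts for these structural groups are to be read against 51 of all 76 subunit members higher (67.1%) and 0 lower. Over all genes 26.8% were higher and 23.2% lower. No difference between a structural group and the other subunit proteins was tested. Rpl31 (chromosome 1, 39367842 to 39371911, plus strand) led them at 0.22 ± 0.06 (SE), from a mean of 4.58 to 5.38 CPM (adjusted p = 7.89e-04 by edgeR). Rpl39, which is set in the tunnel wall, rose by 0.14 ± 0.04 (SE) and Rpl4, the member with the highest CPM, by 0.08 ± 0.02 (SE). Among the 5 proteins listed at the mRNA channel of the small subunit (Rps2, Rps3, Rps15, Rps23 and Rps26), 5 of 5 were higher, with a median of 0.14. Rps23 (chromosome 13, 90922958 to 90924950, plus strand), which lies at the decoding centre, had the largest of these values at 0.25 ± 0.09 (SE) (adjusted p = 0.0179 by edgeR), at a low level of 1.69 CPM for control against 2.01 CPM for cKOt mice and with 18 to 59 counts per sample. Rps3 had none of its windows copied and a mean of 277 against 303 CPM, a log2 fold change of 0.14 ± 0.03 (SE) (adjusted p = 1.14e-04 by edgeR).

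The stalk of the large subunit, formed by Rplp0, Rplp1 and Rplp2 on a base that holds Rpl12, recruits the translation factors. Of these 4, 1 was higher, a share (25.0%) near the 26.8% of all genes. It was Rpl12, at 0.17 ± 0.03 (SE) (adjusted p = 3.35e-05 by edgeR). The stalk proteins had values of 0.07 (Rplp0), 0.08 (Rplp1) and 0.06 (Rplp2), with adjusted p of 0.0798, 0.384 and 0.417 by edgeR. Rplp1 spread widely among mice, from 28.0 to 150.2 CPM among control and from 20.4 to 178 CPM among cKOt mice.

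Other members at the top of the order were Rpl3, Rpl10a, Rpl15 and the 40S protein Rps4x. Rpl3 (chromosome 15, 80077791 to 80091868, minus strand), near the centre where peptide bonds form, had levels of 82.3, 95.5 and 113 CPM for the 30 control mice, against 91.3, 108 and 133 CPM for the 30 cKOt mice as the lowest, median and highest. Its log2 fold change was 0.20 ± 0.02 (SE) (adjusted p = 3.63e-10 by edgeR), and 28 of 30 cKOt mice were above the control median. Rpl15 (chromosome 14, 18267823 to 18271391, minus strand) had a mean of 42.4 ± 3.57 CPM for control and 48.8 ± 5.21 CPM for cKOt mice (SD, n = 30 each), and 15 cKOt mice were above the highest control mouse. Its log2 fold change was 0.19 ± 0.03 (SE). Rps4x (chromosome X, 102184941 to 102189394, minus strand) rose by 0.17 ± 0.02 (SE) at a high level, and all 30 cKOt mice were above the control median of 269 CPM. Rpl10a (chromosome 17, 28328471 to 28331033, plus strand) rose by 0.20 ± 0.04 (SE) (adjusted p = 2.12e-05 by edgeR), with 21 of 30 cKOt mice above the control median. Its values spread more among mice, with libraries that stood apart within their groups.

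The smallest called changes included those of Rpl6, Rpl7, Rpl37a, Rpl7a, Rps24, Rpl35a and Rpl4, with log2 fold changes from 0.08 to 0.10 and adjusted p from 2.35e-05 to 0.0165 by edgeR. Their levels ranged from 64.0 to 396 CPM in control mice. Of the 31 members not called, 6 had a value below 0. These were Rps29, Rps27l, Rpl38, Rpl10, Rpl3l and Rpl7l1, named here after their values were seen. Rps29 had 2 to 20 counts per sample and a value of -0.15 ± 0.14 (SE) (adjusted p = 0.413 by edgeR), so a difference of this size was not detectable at this depth.

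Other called proteins of the 40S subunit included Rps26, Rps3a1, Rps7, Rps19, Rps15a, Rps20, Rps9, Rps15, Rps13, Rps14, Rps16, Rps12, Rps28, Rps2 and Rps18, with log2 fold changes of 0.10 to 0.17 and mean control levels of 10.8 to 195 CPM. On the 60S side they included Rpl13, Rpl34, Rpl17, Rpl23a, Rpl23, Rpl37, Rpl14, Rpl21, Rpl9, Rpl8, Rpl32 and Rpl26, at 0.10 to 0.14 and 9.54 to 185 CPM. Both arms thus held abundant and scarce mRNAs among the called members. Proteins of the 40S subunit without a call included Rps10, Rps21, Rps27a, Rps6, Rps25, Rpsa and Rps29, with values of -0.15 to 0.21, and those of the 60S subunit Rpl11, Rpl35, Rpl36, Rpl13a, Rpl18, Rpl19, Rplp1, Rpl36a, Rpl28, Rplp0, Rplp2, Rpl30, Rpl29, Rpl27, Rpl41, Rpl10 and Rpl38, with -0.05 to 0.11. Of the members with a mean of at least 10 CPM over all mice, 50 of 71 were higher, and of those under it 3 of 13, where 30.4% and 21.6% of all genes at these levels were.

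The paralogs differed among themselves in level and in value. Rps27l (chromosome 9, 66946086 to 66949516, plus strand), a p53-responsive paralog of Rps27, had levels of 72.8, 84.8 and 117 CPM for the 30 control mice, against 62.2, 81.6 and 101 CPM for the 30 cKOt mice as the lowest, median and highest, and the groups overlapped widely. Its value was -0.07 ± 0.03 (SE) (adjusted p = 0.0708 by edgeR), whereas Rps27 rose by 0.15 ± 0.05 (SE) (adjusted p = 0.00594 by edgeR). The difference between these paralogs was not tested. With DESeq2 size factors in place of TMM, by the DESeq2 test, and without the mice numbered 3 or the mice at ZT16, Rps27l was the 1 member called lower. Rpl7l1 (chromosome 17, 46773907 to 46782672, minus strand), a relative of Rpl7 with a role in ribosome assembly, had means of 78.8 ± 6.42 CPM and 78.9 ± 7.45 CPM (SD, n = 30 each) for control and cKOt mice and a value of -0.00154 ± 0.02 (SE). Rpl3l, the muscle paralog of Rpl3, had 1.90 and 1.87 CPM and a value of -0.02 ± 0.08 (SE). Rps4l, Rpl37rt and Rps27rt, all low at 3.14, 1.10 and 0.684 CPM in control mice, had values of 0.01 ± 0.08 (SE), 0.07 ± 0.09 (SE) and 0.16 ± 0.16 (SE), none of them called. As retrogenes or close copies, their counts are uncertain. Rps19bp1 rose by 0.11 ± 0.04 (SE) (adjusted p = 0.0261 by edgeR). Its call was lost in 10 of the alternative fits.

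**Figure D4:**
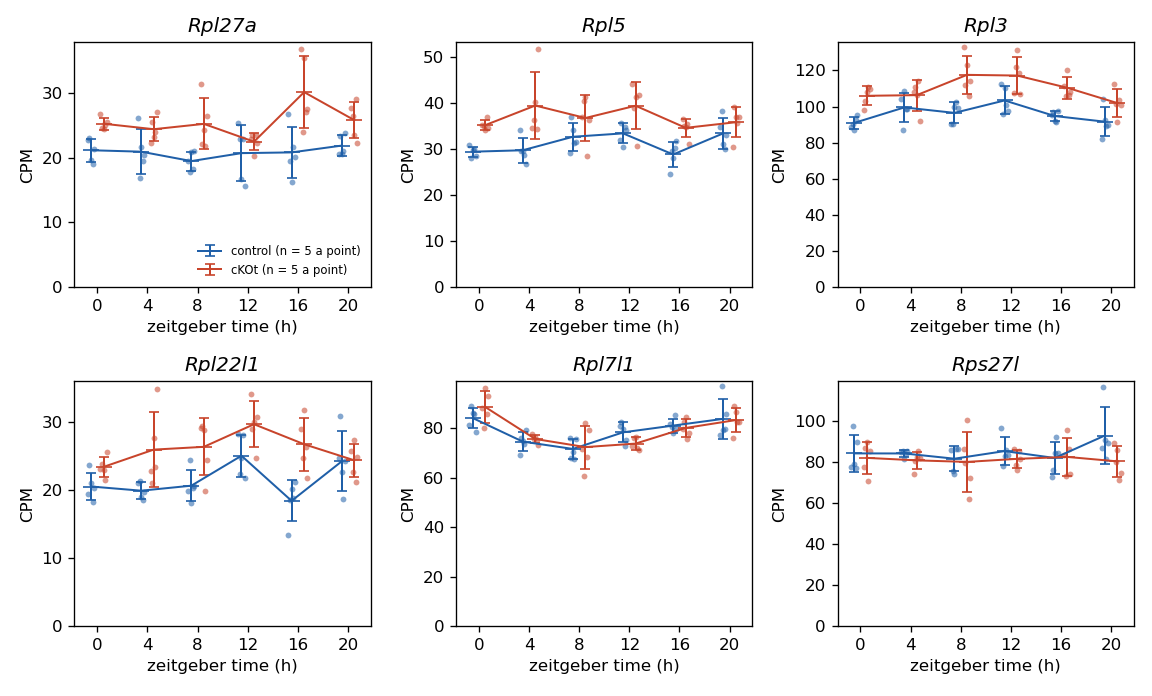
CPM against zeitgeber time (hours) for Rpl27a, Rpl5, Rpl3 and Rpl22l1, which were called higher in cKOt mice, and for the paralogs Rpl7l1 and Rps27l, which were not called, with a point for each mouse and group means with SD (n = 5) in control (blue) and cKOt (red) mice. For Rpl3 the cKOt mean lay above the control mean at all 6 time points, whereas the lines of Rpl7l1 crossed.

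At single time points the members' shift was widest at ZT8 and ZT16. At ZT16, 26 of 84 members were higher, where 10.0% of all genes were, with a median log2 fold change of 0.20 against 0.02 over all genes. At ZT8, 18 were higher (all genes 10.6%), with a median of 0.17 against 0.01, and 13 members were higher at both times. At ZT0 and ZT12, 5 and 5 members were higher (all genes 6.63% and 10.3%), and at ZT4 and ZT20 1 and 1 (all genes 6.20% and 5.98%), shares near or under those of all genes. The medians at ZT0, ZT4, ZT12 and ZT20 were 0.12, 0.07, 0.05 and 0.05. No member was called lower by edgeR at any of the 6 time points, where 5.49%, 6.34%, 9.29%, 10.8%, 9.75% and 7.79% of all genes were lower at ZT0, ZT4, ZT8, ZT12, ZT16 and ZT20. At an unadjusted p under 0.05, 2 members were lower at ZT20 and 0 at the other times, and limma and DESeq2 called 0 at each.

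The mice numbered 3 weighed on these counts. Without them, 7 of 84 members were higher at ZT16, where 7.51% of all genes were, and 6 at ZT8, where 9.74% were, shares near the background. Over the 6 time points together, 40 members were higher without them (all genes 24.9%). The cKOt mouse number 3 at ZT16 had the highest share of counts on the members of all 60 mice. Without the sample marked for removal, 25 members were higher at ZT16 (all genes 9.29%). Without RUVs factors, 12 were at ZT16 (all genes 5.91%) and 10 at ZT8 (all genes 7.07%).

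An interaction test, of unequal genotype differences across the 6 time points, called 0 of 84 members, where 3.08% of all genes were called by the quasi-likelihood test of edgeR, adjusted by Benjamini-Hochberg. At an unadjusted p under 0.05, 5 members passed, and DESeq2 called 1, Rpl22l1, where limma called 0. Without the mice numbered 5, edgeR called Rpl22l1 too. The larger counts at ZT8 and ZT16 are thus not shown to differ from those at the other times for any member by edgeR.

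**Figure D5:**
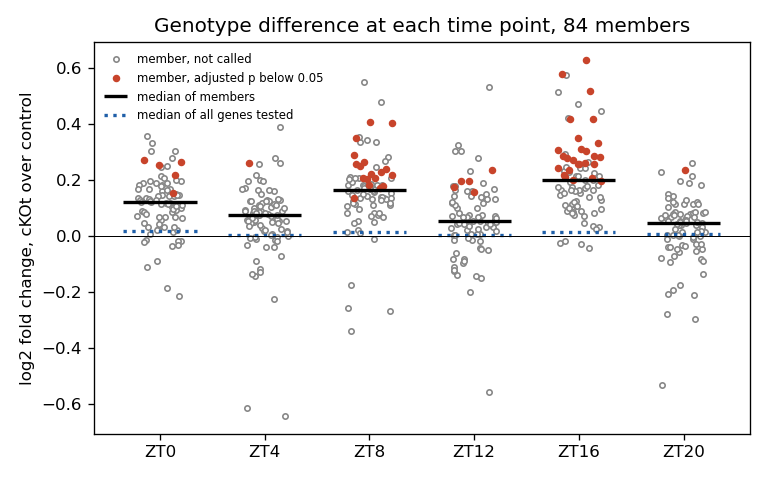
Log2 fold change of cKOt over control mice at each of the 6 time points (vertical axis) for the 84 members, red where the adjusted p was below 0.05, with the median of the members (black) and of all genes tested (dotted blue). The members' median was highest at ZT16, at 0.20, and lowest at ZT20, at 0.05.

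Few of the members had a 24 h rhythm. In control mice, 6 of 84 passed the test, where 34.8% of all genes did, and in cKOt mice 7, where 30.3% did. The median fitted amplitude (peak to trough, log2) over all members was 0.12 in control and 0.12 in cKOt mice, against 0.20 and 0.19 over all genes. The gap was smaller among genes with a mean of at least 10 CPM. Under 10 CPM it was smaller in cKOt mice but not in control mice. At a mean of at least 10 CPM the medians were 0.11 and 0.11 for 71 members, against 0.15 and 0.14 over all genes. Under 10 CPM they were 0.20 and 0.29 for 13 members, against 0.33 and 0.32. By the weights of the 5 rhythm models, 55 members were assigned to no rhythm in either genotype, 3 to a shared rhythm (Rpl7l1, Rpl13a and Rpl3), 2 to a rhythm in cKOt mice alone (Rps27rt and Rpl22l1) and 24 to no model. Over all genes, 34.0% had no rhythm, 25.2% a shared rhythm, 3.42% a rhythm in cKOt mice alone and 28.7% no model. The last 2 shares are near those of the members (2.38% and 28.6%). The rhythm of Rps27rt, a member of low level, was not called by edgeR in cKOt mice.

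The members called rhythmic in control mice included Rpl10a, Rps19bp1, Rpl7l1, Rps24 and Rpl3, in order of amplitude. With no RUVs factors, or with library batch or RNA integrity in their place, the rhythms of Rps19bp1, Rps24 and Rpl3 were not called. These rhythms were also lost with no filter and without the mice numbered 1, 3 or 5. Those of Rps19bp1 and Rps24 were lost without the mice numbered 2, and that of Rpl3 without the mice numbered 4. With DESeq2 size factors that of Rps24 was lost. Rpl10a had an amplitude of 0.43 ± 0.08 (SE) with a fitted peak at ZT20.1 (adjusted p = 7.03e-05 by edgeR), and its mean was 10.4 ± 0.793 CPM (SD, n = 5) at ZT8. With library batch or RNA integrity in place of the RUVs factors, this rhythm was not called. In cKOt mice its amplitude was 0.19 ± 0.08 (SE), and the rhythm was not called (adjusted p = 0.136 by edgeR). Rps19bp1 (0.27 ± 0.09 (SE), ZT19.0) and Rps24 (0.15 ± 0.05 (SE), ZT22.2) also peaked in the dark phase. Rpl7l1 peaked at ZT19.9 in control mice with an amplitude of 0.21 ± 0.05 (SE) and at ZT21.4 in cKOt mice with 0.27 ± 0.05 (SE), and was rhythmic in both genotypes (adjusted p = 0.00105 and 2.74e-05 by edgeR).

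Rpl3 stood apart in phase. It peaked at ZT10.3 in control mice, with an amplitude of 0.15 ± 0.05 (SE), and at ZT9.93 in cKOt mice, with 0.21 ± 0.05 (SE) (adjusted p = 0.0295 and 0.00179 by edgeR). Its mean in cKOt mice was 118 ± 10.5 CPM at ZT8 and 102 ± 7.60 CPM at ZT20 (SD, n = 5 mice a group). In cKOt mice the other members called were Rpl13a, Rpl22, Rpl22l1, Rpl3l and Rps24, besides Rpl7l1. Rpl22l1 had an amplitude of 0.29 ± 0.07 (SE) with a peak at ZT12.5 there, against 0.04 ± 0.07 (SE) in control mice. The difference between its rhythms had an adjusted p of 0.314 by edgeR. The cKOt rhythm of Rpl22l1 was not called without RUVs factors, or with library batch or RNA integrity in their place. It was also lost without the mice numbered 3. In the same fits without RUVs factors, with batch and with RNA integrity, the cKOt rhythms of Rps24 and Rpl3l were not called either. That of Rpl3 was called in every alternative that tested rhythms.

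The rhythm differed between genotypes in 0 of 84 members by edgeR, where 5.29% of all genes were called. DESeq2 and limma called 0 as well, and 2 members had an unadjusted p under 0.05. A rhythm called in control mice and not in cKOt mice, such as that of Rpl10a, is therefore not shown to have been lost.

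The fitted peaks of the members lay mostly in the dark phase, whether or not a rhythm was called. In control mice 61 of 84 members had their fitted peak between ZT16 and ZT22, against 30.7% of all genes, with a mean peak at ZT19.8. In cKOt mice 44 did, against 32.3% of all genes, with a mean peak at ZT17.8. The members share their libraries. Over the 76 subunit proteins, the median pairwise r, with time point means removed, was 0.33 over 30 control mice and 0.32 over 30 cKOt mice. The window of ZT16 to ZT22 was not among the planned analyses, and it holds the members' own mean peaks. These are descriptions, and a shared phase was not tested.

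The genes around the ribosome did not all move with it. Their counts are to be read against 26.8% of all genes higher and 23.2% lower. Among 18 translation factors and other genes whose mRNAs are known for a TOP tract, 9 of 18 were higher and 1 lower, with a median log2 fold change of 0.04. The largest changes were those of Tpt1, a growth-related protein, at 0.21 ± 0.04 (SE), and the initiation factor subunit Eif3f at 0.20 ± 0.03 (SE), whereas Nap1l1, a histone chaperone, fell by 0.37 ± 0.02 (SE). Of 3 subunits outside the naming rule, 1 was higher, Rack1 at 0.13 ± 0.02 (SE), from 263 to 285 CPM. Of 11 noncoding host genes of small nucleolar RNAs, which guide the modification of ribosomal RNA, 6 of 11 were higher and 1 lower, with a median log2 fold change of 0.11, with Epb41l4aos at 0.38 ± 0.08 (SE), Snhg6 at 0.37 ± 0.06 (SE) and Snhg8 at 0.30 ± 0.07 (SE).

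The factors that build ribosomes were called in both directions, at counts to be read against the 26.8% of all genes that were higher and the 23.2% that were lower. For assembly of the small subunit 10 of 40 were higher and 9 lower, with a median log2 fold change of 0.00429, with Utp20 falling by 0.35 ± 0.05 (SE). For assembly of the large subunit 6 of 48 were higher and 8 lower, with a median log2 fold change of 0.02, and Rpf2, which places the 5S particle with RPL5 and RPL11, fell by 0.42 ± 0.04 (SE), from 22.4 to 16.9 CPM (adjusted p = 3.57e-13 by edgeR). Of 18 genes of RNA polymerase I and its factors, which make ribosomal RNA, 5 of 18 were higher and 1 lower, with a median log2 fold change of -8.79e-04, and Tcof1 had the largest change at 0.14 ± 0.04 (SE).

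Of 34 genes of growth control through mTOR and MYC, 6 were higher (17.6%) and 10 lower (29.4%), where 26.8% and 23.2% of all genes were. Their median log2 fold change was -0.02. Castor1, an arginine sensor upstream of mTOR, fell by 0.95 ± 0.05 (SE), Ddit4l, an inhibitor of mTOR signalling, rose by 0.94 ± 0.04 (SE), and Myc, which drives ribosome production, rose by 0.74 ± 0.12 (SE) from a mean of 4.91 to 7.71 CPM. Mtor itself fell by 0.50 ± 0.04 (SE), a gene outside the naming rule and named after its value was seen. Of 6 genes that tie the ribosome to p53, 3 were higher and 1 lower, to be read against the same shares of all genes. Cdkn1a, the cell cycle inhibitor p21, rose by 1.77 ± 0.09 (SE), from 5.87 to 17.7 CPM, Mdm4 rose by 0.17 ± 0.03 (SE) and Mdm2 fell by 0.10 ± 0.02 (SE).

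Of the markers of other cells, those of podocytes (0 of 3), adipocytes (0 of 3) and erythroid cells (0 of 2 tested) were not called between genotypes, and 1 of 3 liver markers was lower. Tubule markers moved in both directions, with 3 higher and 3 lower of 7 for the proximal tubule, 2 and 1 of 3 for the thick ascending limb, 2 and 0 of 3 for the distal convoluted tubule and 2 and 2 of 5 for the collecting duct. Of the leukocyte markers 4 of 7 were lower in cKOt mice (summed level 145 to 261 CPM for control and 126 to 203 CPM for cKOt mice), of the fibroblast markers 3 of 4 (39.7 to 170.3 CPM for control and 54.4 to 145 CPM for cKOt mice) and of the endothelial markers 3 of 3 (240.1 to 297 CPM for control and 192 to 280.5 CPM for cKOt mice). Of the leukocyte markers, 2 stayed below 1 CPM in every sample. Over all genes 26.8% were higher and 23.2% lower. The part of these markers in the shift of the ribosomal protein mRNAs was not tested. The share of counting entries outside genes was 6.05% ± 0.434 and 6.86% ± 0.636 (SD, n = 30) in control and cKOt mice, and its part was not tested.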

How the data were processed

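The authors counted reads of stranded poly(A) libraries on Ensembl genes, and the tools named in the submitters' processing notes are bcl2fastq, cutadapt (1.8), STAR (2.5.3a) and HTSeq (0.9.1), with the build GRCm38. The deposited counts are whole numbers, without normalization. The version of the gene annotation was not given in the sources used here. Alignments to more than 1 place were left out of the counts, which can lower the counts of genes with copies. Symbols, positions and transcripts were taken from GENCODE M21, and sequence at transcript starts from RefSeq.

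The genes that reached 1 CPM in 1 or more samples were tested with edgeR (4.0.16) in R (4.3.3), with TMM library sizes, 12 groups, 2 RUVs factors (from logCPM with a prior count of 2), the quasi-likelihood F test, and Benjamini-Hochberg adjustment over all genes tested (threshold 0.05). Rhythms were tested on cosine and sine contrasts of a 24 h period over group means. To assign genes to the 5 dryR models, weights from the Bayesian information criterion were used (minimum 0.65). CPM values were scaled by TMM, and CPM per kb used the length of all annotated exons of a gene. The fits were tested on simulated data. Alternatives used DESeq2 (1.42.0), limma (3.58.1), other scalings, filters and covariates, and fewer samples.

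Members and gene lists were chosen with earlier results of these data known. Genes were named by a rule: the 8 largest and 8 smallest called changes, the paralogs and Rps19bp1, the 6 largest amplitudes among those rhythmic in control mice, the highest and lowest level per kb, examples of the structural groups, up to 3 of the largest called changes of each other list, and Arntl. Further genes are named after their values were seen, or as members of a printed list. Single values of some listed genes are not reported here.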

Additional observations from a re-analysis of the deposited data

Results flagged for a closer look

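Within groups of 5 mice, values were compared for a mouse that stood apart from the rest (a gap of over 0.71 of the range of the group, by Dixon's criterion) in the summed share and in 8 members, 108 groups in all. Chance gives about 1 in 20 such groups, and 5 were found. Rpl10a was high in 3 of them, at 17.6 CPM (the other 4 mice 13.0 to 13.9 CPM) in control mouse 1 at ZT0, at 20.8 CPM (the other 4 mice 11.7 to 14.0 CPM) in control mouse 1 at ZT16, and at 24.1 CPM (the other 4 mice 15.8 to 18.1 CPM) in cKOt mouse 1 at ZT16. Rps27l was high in control mouse 2 at ZT20, at 117 CPM (the other 4 mice 81.4 to 90.7 CPM). Rps4x was low in control mouse 3 at ZT0, at 254 CPM (the other 4 mice 267 to 271 CPM). Without the mice numbered 1, Rpl10a was still called rhythmic in control mice.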

How the results depend on the processing

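The number of members higher in cKOt mice (53) stayed between 49 and 56 with DESeq2 size factors, scaling without the members, limma-trend, DESeq2, no filter, filterByExpr, and without the sample marked for removal. It was 36 without RUVs factors, 33 with library batch and 35 with RNA integrity in their place, 2 (Rpl27a and Rpl22l1) with a fold change above 1.2 required, and 40 to 53 when each replicate number was left out. Scaling by total counts (69 higher) and leaving out each time point (45 to 60) were chosen after seeing the data. The number lower (0) became, through Rps27l, 1 with DESeq2 size factors, 1 with DESeq2, 1 without ZT16 and 0 to 1 without a replicate number. Members called in the interaction (0) were 1 with DESeq2 and 0 to 1 without a replicate number. Members rhythmic in control mice (6) were 3 with no filter, 2 without RUVs factors, 3 with batch, 1 with RNA integrity and 2 to 8 without a replicate number, and in cKOt mice (7) they were 3, 4 and 3 without RUVs factors, with batch and with RNA integrity, and 3 to 6 without a replicate number. Rpl7l1 was called rhythmic in both genotypes in every alternative that tested rhythms. Members called at any single time point (34) were 19, 21 and 19 in these 3 fits and 12 (without replicate 3) to 40 without a replicate number. The members assigned to no rhythm (55) ranged from 41 to 61 without a replicate number, and the difference in share of counts (0.0882 percentage points) from 0.0783 to 0.0975. Over 25 named members, 521 of 575 alternative values kept direction and call, 45 lost the call and 8 gained it. On total counts the change of Rpl7l1 turned from below 0 to 0.0876 and was called. The causes of these differences were not tested.

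Replicate numbers did not pair the mice (mean correlation of residuals 0.00433 over 330 pairs of samples). With the replicate number as a block, 54 members were higher, 7 and 6 were rhythmic in control and cKOt mice, and 33 were called at a single time point. Changes are small against counting error for the members of few counts, of which 3 had under 10 counts in some sample.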
